A study of Drosophila melanogaster with 9 samples.

Results

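The genes *prc*, *Sur*, *Ih*, *svp* and *pnr* of Drosophila melanogaster, which are known from the embryonic heart, were followed in sorted embryonic cells. They were taken by symbol, as the probe sets paired with exactly 1 gene among these 5. That gave 7 probe sets of 16377 on the array and 5 genes of 10563 that have a probe set of their own. *svp* had 3 probe sets and each of the other genes had 1.

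Embryos were collected for 2 h and aged for a further 8 h at 25 °C, to stage 13, when myoblasts fuse and the heart precursors move to the dorsal midline. Cells were sorted by fluorescence into 3 groups of 3 arrays, each array from a sort of its own. The ap_GFP group (transgene apterous-GFP) expressed GFP from an *apterous* muscle enhancer. The slou_RFP group (transgene slouch-RFP) expressed RFP from a *slouch* muscle enhancer. The twi_actin_GFP group (transgene twist_actin-GFP) carried an actin-GFP fusion under the promoter of *twist* and was the submitters' common control. The labels give somatic mesoderm as the tissue of all groups and state no other allele. On resorting, 74% of ap_GFP cells, 87% of slou_RFP cells and 95% of twi_actin_GFP cells were positive, so that purity differed between the groups, and its part in the results was not tested.

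The fly heart, or dorsal vessel, is a tube of contractile cardioblasts flanked by pericardial cells, which filter the hemolymph as nephrocytes. *pnr* (pannier) encodes a GATA zinc finger factor that helps to specify the cardiac progenitors in the dorsal mesoderm and also acts in the dorsal ectoderm. *svp* (seven-up) encodes an orphan nuclear receptor of the COUP-TF type that marks the cardioblasts forming the inflow valves, and it also acts in fat body, oenocytes and the nervous system. *prc* (pericardin) encodes a collagen-like protein of the matrix around the heart. *Sur* encodes a sulfonylurea receptor, an ABC protein that in mammals is the regulatory subunit of ATP-sensitive potassium channels. *Ih* encodes a hyperpolarization-activated cation channel, the channel type that in mammals carries the pacemaker current.

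The signals are log2 values of the authors, and array medians lay between 4.47 and 4.61. slou_RFP replicate 2 stood apart, with a median absolute gap of 0.280 to the mean of its group mates. That gap was 0.134 to 0.178 on the remaining ap_GFP and slou_RFP arrays, and 0.0986 to 0.121 in twi_actin_GFP. ap_GFP replicate 3 had an ordinary gap of 0.154, but its deviations from its group mean correlated with those of slou_RFP replicate 2 at r = 0.67 across probe sets, the highest value for any pair of arrays from different groups. These are called the divergent arrays below. The changes of the 5 genes and the counts of the cardiac, GATA and nuclear receptor lists are also given without both, an alternative chosen after seeing the data. The changes of other single genes are given with all 9 arrays. The muscle reporter groups share 1 control group, and their changes against it are therefore not independent. In bulk RNA, fewer cells of a type and less RNA per cell cannot be told apart.

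Transcripts of *prc*, *svp*, *Sur* and *pnr* were lower in both muscle reporter groups than in twi_actin_GFP, by 2.71-fold to 9.64-fold in ap_GFP and by 3.21-fold to 9.23-fold in slou_RFP. *Ih* stayed below the array median on every array and passed no test. Thus 4 of 5 genes were lower in ap_GFP (limma, adjusted p below 0.05), where 16.3% of all genes were lower, and 4 of 5 were lower in slou_RFP, where 17.3% of all genes were. The median change of the 5 genes was -1.87 in ap_GFP and -2.07 in slou_RFP on the log2 scale, against 0.08 for all genes in either comparison. For the 4 genes the 3 muscle reporter values all lay below the 3 twi_actin_GFP values. This held for 23.2% of all genes with ap_GFP and for 23.5% with slou_RFP. The 4 genes also passed the cut that the submitters applied (at least 1.7-fold, unadjusted p below 0.05) in both comparisons.

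**Figure D1:**
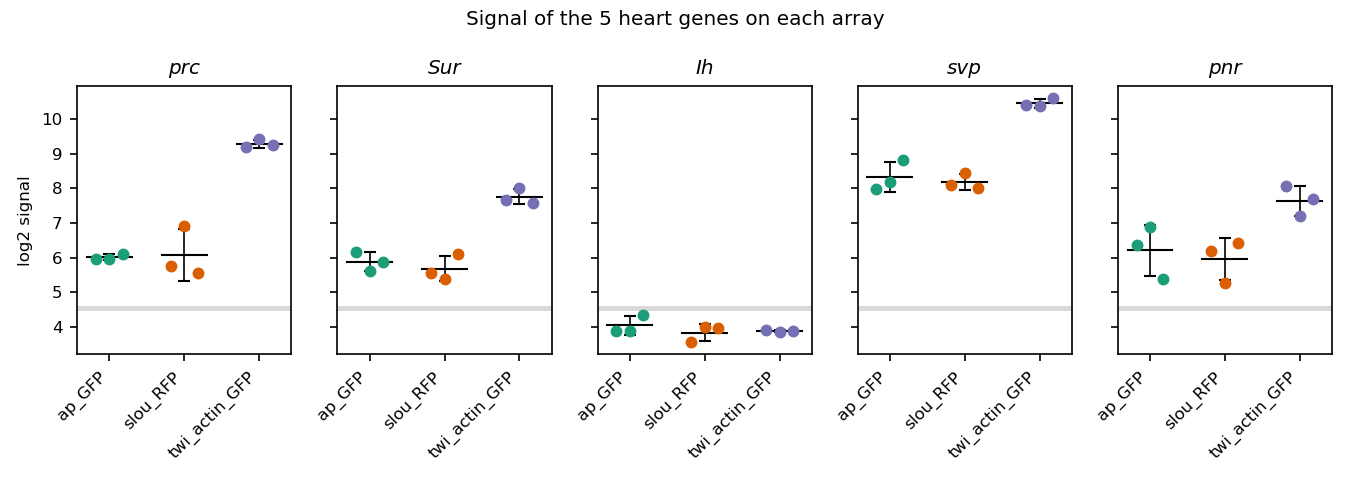
Log2 signal (y axis) of each gene on the 9 arrays, by group (x axis), with 1 point per array, a horizontal line at the group mean and bars of 1 SD (n = 3). The grey band spans the array medians of 4.47 to 4.61. *prc*, *Sur*, *svp* and *pnr* lie lower on all 6 muscle reporter arrays than on the 3 twi_actin_GFP arrays, and *Ih* lies below the band on all 9.

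Of the transcription factor genes, *svp* showed a change well outside the spread of its arrays. Its brightest probe set read 7.99, 8.17 and 8.80 in ap_GFP, 8.10, 8.43 and 8.01 in slou_RFP, and 10.39, 10.37 and 10.60 in twi_actin_GFP. The highest muscle reporter value thus lay well short of the lowest twi_actin_GFP value. *svp* averaged 8.32 ± 0.43 in ap_GFP, 8.18 ± 0.22 in slou_RFP and 10.45 ± 0.13 in twi_actin_GFP (SD, n = 3 each). The change was -2.13 ± 0.21 (SE) in ap_GFP, a level 4.38-fold lower (95% interval 3.15 to 6.09, adjusted p = 0.000141). In slou_RFP it was -2.27 ± 0.21, a level 4.82-fold lower (95% interval 3.47 to 6.70, adjusted p = 9.93e-05). Without both divergent arrays the changes were -2.37 in ap_GFP and -2.39 in slou_RFP. Among all genes, 329 had a larger decrease in ap_GFP and 291 in slou_RFP.

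The probe sets of *svp* did not all move alike. The second brightest read 4.85, 4.83 and 5.15 in ap_GFP, 4.46, 4.98 and 4.78 in slou_RFP, and 5.47, 5.49 and 6.04 in twi_actin_GFP. It lay just above the array medians on most arrays and was lower in the muscle reporters as well. Its change was -0.72 ± 0.19 in ap_GFP (adjusted p = 0.0270) and -0.93 ± 0.19 in slou_RFP (adjusted p = 0.00834). The dimmest stayed between 2.90 and 3.30 on all 9 arrays, with at most 15.8% of the probe sets of an array below it. Its estimates were 0.05 in ap_GFP (adjusted p = 0.796) and 0.02 in slou_RFP (adjusted p = 0.930), and at that signal it is not shown to be above background. The decrease of *svp* therefore rests on the brighter probe sets, and which transcripts each one detects was not tested.

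*pnr* was lower in both muscle reporter groups too, but with a wide spread. It read 6.35, 6.87 and 5.40 in ap_GFP, 6.19, 5.27 and 6.44 in slou_RFP, and 8.06, 7.19 and 7.69 in twi_actin_GFP. The groups did not overlap, and the gap between the highest ap_GFP value and the lowest twi_actin_GFP value was narrow. *pnr* averaged 6.21 ± 0.75 in ap_GFP, 5.96 ± 0.62 in slou_RFP and 7.65 ± 0.43 in twi_actin_GFP (SD, n = 3 each). Its change was -1.44 ± 0.42 in ap_GFP, or 2.71-fold lower (95% interval 1.38 to 5.30, adjusted p = 0.0421). In slou_RFP it was -1.68 ± 0.42, or 3.21-fold lower (95% interval 1.64 to 6.28, adjusted p = 0.0215).

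The lowest *pnr* value of each muscle reporter group came from a divergent array. ap_GFP replicate 3 lay 1.22 below the mean of the other ap_GFP arrays (gap -1.22), a gap larger than that of 97.2% of genes on this array. The gap was -1.04 on slou_RFP replicate 2, larger than for 90.1% of genes. Without both arrays *pnr* was still lower, with changes of -1.03 ± 0.25 in ap_GFP (adjusted p = 0.0123) and -1.34 ± 0.25 in slou_RFP (adjusted p = 0.00338). With some single arrays left out the call was lost. In ap_GFP the adjusted p came to 0.0916 without ap_GFP replicate 1, 0.107 without ap_GFP replicate 3, 0.0597 without slou_RFP replicate 1, 0.125 without twi_actin_GFP replicate 1, 0.0555 without twi_actin_GFP replicate 2 and 0.118 without twi_actin_GFP replicate 3. In slou_RFP it was 0.0704 without twi_actin_GFP replicate 1 and 0.0719 without twi_actin_GFP replicate 3. The direction was the same in each of these fits.

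The matrix gene *prc* had the largest change of the 5 genes in both comparisons. It read 5.97, 5.96 and 6.11 in ap_GFP, 5.75, 6.92 and 5.55 in slou_RFP, and 9.18, 9.42 and 9.24 in twi_actin_GFP. The ap_GFP and twi_actin_GFP arrays each kept to a narrow range, and slou_RFP replicate 2 stood above its group. *prc* averaged 6.01 ± 0.09 in ap_GFP, 6.08 ± 0.74 in slou_RFP and 9.28 ± 0.12 in twi_actin_GFP (SD, n = 3 each). The change was -3.27 ± 0.31 in ap_GFP, or 9.64-fold lower (95% interval 5.95 to 15.6, adjusted p = 0.000109). In slou_RFP it was -3.21 ± 0.31, or 9.23-fold lower (95% interval 5.70 to 14.9, adjusted p = 0.00012). Only 79 of 10563 genes had a larger decrease in ap_GFP, and 83 in slou_RFP. Without both divergent arrays the changes were -3.32 in ap_GFP and -3.63 in slou_RFP. On slou_RFP replicate 2 *prc* exceeded the mean of its group mates by 1.27, a gap larger than that of 93.5% of genes on this array.

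**Figure D2:**
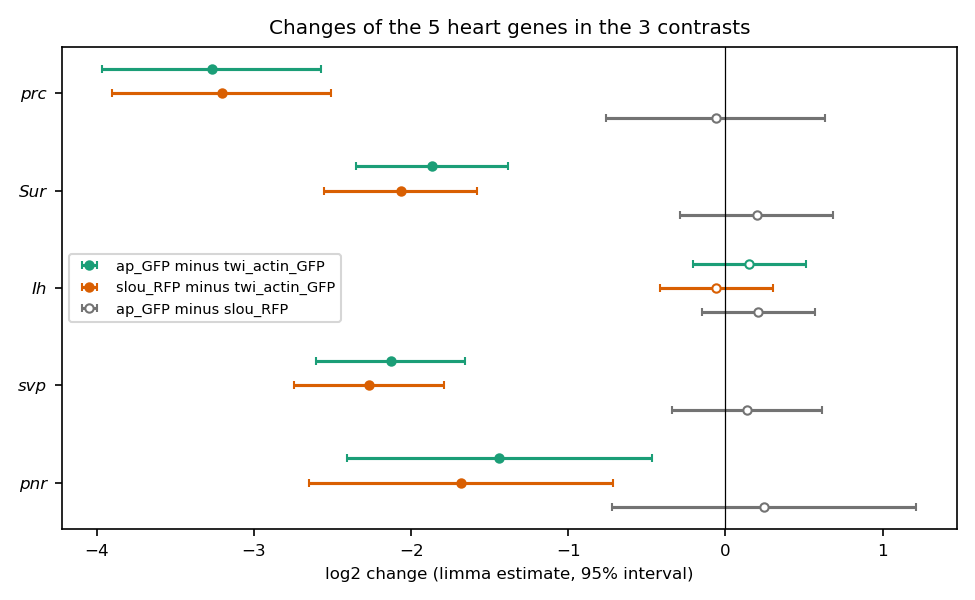
Log2 change (x axis) of each gene (rows) in the 3 contrasts, as the limma estimate with its 95% interval, with filled points for an adjusted p below 0.05 and open points otherwise. The intervals of *prc*, *Sur*, *svp* and *pnr* lie below 0 against twi_actin_GFP, those of *Ih* span 0, and all 5 genes span 0 for ap_GFP minus slou_RFP.

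Of the channel genes, *Sur* was lower in both muscle reporter groups. It read 6.16, 5.60 and 5.89 in ap_GFP, 5.56, 5.39 and 6.10 in slou_RFP, and 7.67, 8.00 and 7.59 in twi_actin_GFP. All 6 muscle reporter values lay below the twi_actin_GFP values, and slou_RFP replicate 2 read lowest. *Sur* averaged 5.89 ± 0.28 in ap_GFP, 5.69 ± 0.37 in slou_RFP and 7.75 ± 0.22 in twi_actin_GFP (SD, n = 3 each). Its change was -1.87 ± 0.21 in ap_GFP, or 3.65-fold lower (95% interval 2.60 to 5.11, adjusted p = 0.000338). In slou_RFP it was -2.07 ± 0.21, or 4.19-fold lower (95% interval 2.99 to 5.87, adjusted p = 0.000191). Without both divergent arrays the changes were -1.87 and -1.92 in ap_GFP and slou_RFP.

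*Ih* gave no difference that passed the test. It read 3.90, 3.89 and 4.36 in ap_GFP, 3.57, 3.99 and 3.97 in slou_RFP, and 3.93, 3.87 and 3.90 in twi_actin_GFP. The groups overlapped, and on each array at least 26.9% and at most 47.6% of all probe sets read lower. These deposited values carry no detection call, so *Ih* is not shown to be above background in any group. The change was 0.15 in ap_GFP (95% interval -0.21 to 0.51, adjusted p = 0.524) and -0.06 in slou_RFP (95% interval -0.42 to 0.30, adjusted p = 0.796). Without both divergent arrays the ap_GFP change was -0.0030 and the slou_RFP change -0.13.

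The muscle reporter groups were also set directly against each other. None of the 5 genes passed, and 0.0% of all genes did (limma, 0 of 10563 at an adjusted p below 0.05, with 270 at an unadjusted p below 0.05). The difference ap_GFP minus slou_RFP was -0.06 for *prc* (95% interval -0.76 to 0.63), 0.14 for *svp* (-0.34 to 0.61) and 0.20 for *Sur* (-0.29 to 0.69). It was 0.25 for *pnr* (-0.72 to 1.21) and 0.21 for *Ih* (-0.15 to 0.57), with adjusted p of 0.994 to 0.995 for all 5. Without both divergent arrays the differences were 0.31 for *prc*, 0.02 for *svp*, 0.05 for *Sur*, 0.30 for *pnr* and 0.13 for *Ih*, and none passed. The interval for *pnr* was the widest of the 5 and ran to 2.32-fold higher in ap_GFP. The sign for *prc* rested on slou_RFP replicate 2, without which the difference was 0.36 (adjusted p = 0.976).

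**Figure D3:**
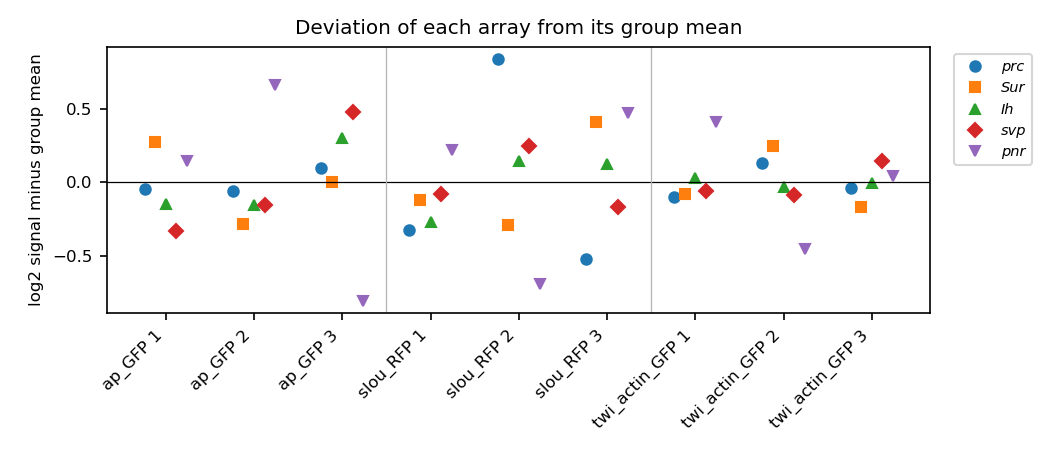
Log2 signal minus the group mean (y axis) of the 5 genes on each of the 9 arrays (x axis, group and replicate number). *pnr* lies lowest on ap_GFP replicate 3 and slou_RFP replicate 2, at -0.81 and -0.70, while *svp* lies above its group mean there, at 0.48 and 0.25, and *prc* lies at 0.84 on slou_RFP replicate 2.

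Other regulators of heart fate went both ways. Of 15 measured cardiac transcription factor genes, which include *svp* and *pnr*, 2 were higher and 8 lower in each comparison. Of all genes, 10.9% were higher and 16.3% lower in ap_GFP, and 11.3% were higher and 17.3% lower in slou_RFP. Without *svp* and *pnr* it was 2 higher and 6 lower of 13, with a median change of -0.21 in ap_GFP and -0.10 in slou_RFP. Without both divergent arrays 3 of the 15 were higher and 8 lower. The gene *tin*, which encodes the homeodomain factor at the top of the cardiac network, was not analysed here.

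*Hand*, a bHLH gene of cardioblasts, pericardial cells and visceral muscle, read 6.75, 7.33 and 7.25 in ap_GFP, 6.54, 7.14 and 6.81 in slou_RFP, and 11.18, 11.30 and 11.33 in twi_actin_GFP. Its change was -4.16 ± 0.19 in ap_GFP (adjusted p = 3.8e-06) and -4.44 ± 0.19 in slou_RFP (adjusted p = 2.58e-06), a larger change than that of any of the 5 genes. The zinc finger gene *odd*, expressed in a subset of pericardial cells, changed by -2.85 in ap_GFP and -2.95 in slou_RFP. The LIM-homeodomain gene *tup* changed by -1.96 and -1.94 in ap_GFP and slou_RFP. The T-box gene *mid* was higher, by 1.12 ± 0.22 in ap_GFP and 0.91 ± 0.22 in slou_RFP, and its close relative *H15* was lower, at -0.83 and -0.77. Both *mid* and *H15* act in cardioblasts, and *mid* acts in some body wall muscles too. The Dorsocross T-box genes *Doc1*, *Doc2* and *Doc3* had estimates of -0.21 to 0.31 in ap_GFP and -0.10 to 0.45 in slou_RFP, and none of them passed the test.

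GATA factor genes other than *pnr* were mostly lower as well. Of the other 5 genes on the list of GATA factors and their partners, 4 were lower and 0 higher in each comparison. Of all genes, 16.3% were lower and 10.9% higher in ap_GFP, and 17.3% were lower and 11.3% higher in slou_RFP. With *pnr*, 5 of 6 were lower and 1 higher in each when both divergent arrays were left out. Of all 16377 probe sets, that fit called 2696 lower and 3272 higher in ap_GFP, and 2772 and 3383 in slou_RFP. *srp*, the GATA gene of blood cells and fat body, changed by -2.45 ± 0.22 in ap_GFP and -2.68 ± 0.22 in slou_RFP. The gut gene *GATAe* changed by -3.80 and -3.64, and *grn* by -2.86 and -2.81, in ap_GFP and slou_RFP. *ush*, whose FOG-type protein binds Pannier and Serpent, changed by -1.14 (adjusted p = 0.00246) and -1.16 (adjusted p = 0.00225). *GATAd* had estimates of 0.85 in ap_GFP and 0.45 in slou_RFP and did not pass (adjusted p = 0.106 and 0.329). *dpp*, the BMP ligand gene that acts upstream of *pnr*, changed by -2.25 ± 0.47 in ap_GFP and -2.27 ± 0.47 in slou_RFP. Of 11 measured genes of BMP signalling and *hh*, 3 were higher and 2 lower in each comparison. The lower ones lay near the share of all genes and the higher ones above it. The BMP receptor genes *put* and *sax* were at 0.59 and 0.49 in ap_GFP and 0.54 and 0.42 in slou_RFP.

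Against the other nuclear receptor genes *svp* had the smallest adjusted p in both comparisons. Of the other 15 measured, 1 was higher and 3 lower in ap_GFP, and 1 was higher and 4 lower in slou_RFP, with medians of -0.04 and -0.27. These counts lay near the background of 16.3% lower and 10.9% higher in ap_GFP, and 17.3% lower and 11.3% higher in slou_RFP. With *svp*, 3 of 16 were higher and 6 lower in each comparison when both divergent arrays were left out. Of all 16377 probe sets, that fit called 3272 higher and 2696 lower in ap_GFP, and 3383 and 2772 in slou_RFP. The Knirps family genes *knrl* and *kni* changed by -1.50 and -1.40 in ap_GFP and by -1.54 and -1.32 in slou_RFP. The ecdysone receptor gene *EcR* changed by -0.45 and -0.44, and *Hr78* by 0.41 and 0.37, in ap_GFP and slou_RFP.

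Some matrix and pericardial genes were lower as *prc* was, and others did not pass. Of the other 17 measured, 2 were higher, 7 lower and 8 not called in each comparison, where 16.3% of all genes were lower in ap_GFP and 17.3% in slou_RFP. Including *prc*, 3 of 18 were higher and 9 lower once both divergent arrays were left out. Of all 16377 probe sets, that fit called 3272 higher and 2696 lower in ap_GFP, and 3383 and 2772 in slou_RFP. The 17 had a median of -0.73 in ap_GFP and -0.62 in slou_RFP. *loh*, whose ADAMTS-like protein is known to hold Pericardin in the heart matrix, changed by -2.02 ± 0.13 in ap_GFP and -2.30 ± 0.13 in slou_RFP. *Amnionless*, a nephrocyte receptor gene, changed by -3.52 ± 0.35 and -3.83 ± 0.35, and the perlecan gene *trol* by -2.20 ± 0.21 and -2.40 ± 0.21, in ap_GFP and slou_RFP. The collagen IV genes *vkg* and *Col4a1* changed by -2.68 and -2.61 in ap_GFP and by -3.12 and -2.95 in slou_RFP. By contrast the netrin receptor gene *unc-5* was higher, by 0.88 ± 0.13 and 0.81 ± 0.13. The laminin genes *LanB1* and *LanB2* did not pass, at -0.19 and -0.30 in ap_GFP and -0.25 and -0.38 in slou_RFP.

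**Figure D4:**
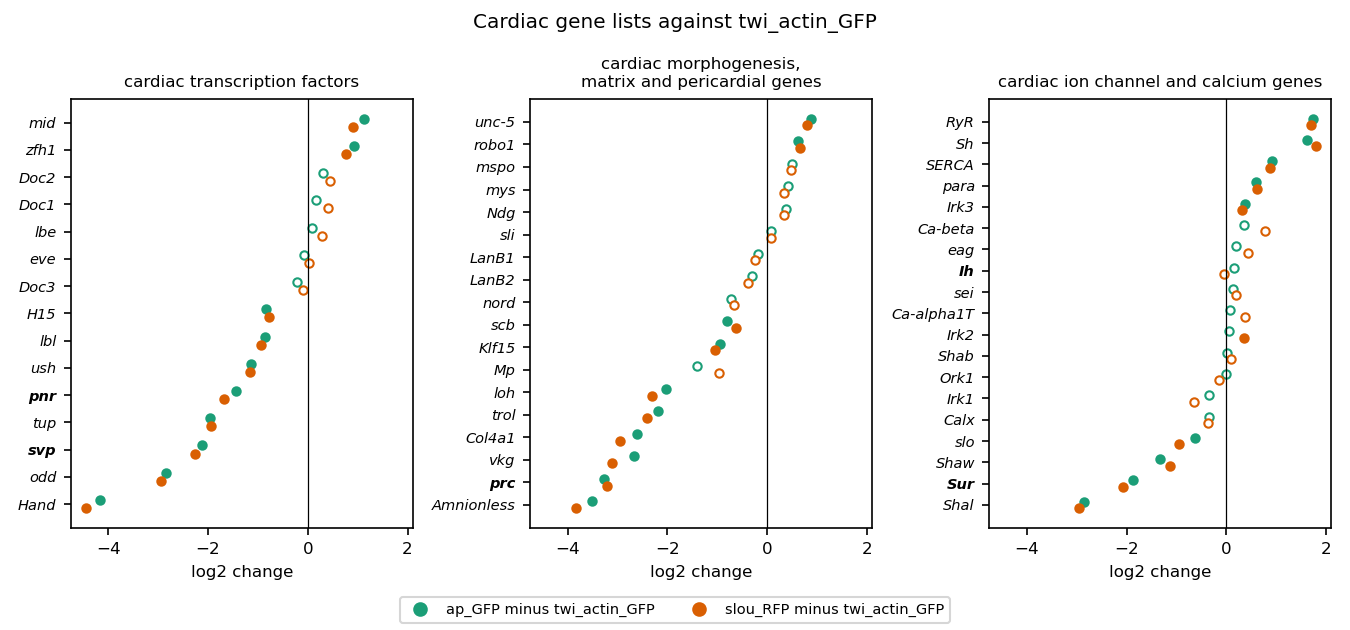
Log2 change against twi_actin_GFP (x axis) for the measured genes (rows) of 3 cardiac lists, in ap_GFP (green) and slou_RFP (orange), filled where the adjusted p is below 0.05, with the 5 genes in bold. *Hand* and *Amnionless* reach changes beyond those of *svp* and *prc*, and the channel list holds genes on either side of 0, from *Shal* at -2.85 and -2.96 to *RyR* at 1.74 and 1.70.

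Channel and calcium handling genes showed no common direction. Of the 17 measured beside *Sur* and *Ih*, 5 were higher and 3 lower in ap_GFP and 6 were higher and 3 lower in slou_RFP. The lower genes lay near the background of 16.3% in ap_GFP and 17.3% in slou_RFP, and the higher genes above that of 10.9% and 11.3%. Including *Sur* and *Ih*, 6 of 19 were higher and 5 lower in ap_GFP, and 7 higher and 5 lower in slou_RFP, once both divergent arrays were left out. Of all 16377 probe sets, that fit called 3272 higher and 2696 lower in ap_GFP, and 3383 and 2772 in slou_RFP. *Shal*, a potassium channel gene, read 5.84, 6.04 and 5.78 in ap_GFP, 5.75, 5.89 and 5.66 in slou_RFP, and 8.57, 8.85 and 8.77 in twi_actin_GFP, with changes of -2.85 and -2.96. *Shaw* changed by -1.34 and -1.13 in ap_GFP and slou_RFP. The potassium channel gene *Sh* was higher, by 1.62 ± 0.17 and 1.79 ± 0.17, as was the ryanodine receptor gene *RyR*, by 1.74 ± 0.11 and 1.70 ± 0.11. Sulfonylurea receptors in mammals pair with inward rectifier channels. Of the fly genes of that family, *Irk1* did not pass (-0.35 and -0.66), *Irk2* was higher only in slou_RFP by the test (0.05 and 0.35, the difference not passing), and *Irk3* was higher in both (0.36 and 0.31). All 3 had a mean over the 9 arrays of 4.63 or less, close to or below the array medians.

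Some markers of fat body, blood cells and dorsal epidermis were also lower in the muscle reporters. In the fat body list, whose other members beside *svp* number 5, 3 were lower and 0 higher in both comparisons, with *apolpp* at -4.17 and -4.53 and *Lsd-1* at -3.29 and -3.43 in ap_GFP and slou_RFP. Each member's deviation from its own mean over 9 arrays was taken, and the median over members was formed on each array. Across arrays this median ran from -0.98 to -0.39 in ap_GFP, -1.01 to -0.74 in slou_RFP and 1.46 to 2.04 in twi_actin_GFP. Of 13 hemocyte genes 6 were lower and 1 higher in both comparisons, where 16.3% of all genes were lower in ap_GFP and 17.3% in slou_RFP. The crystal cell gene *PPO2* was at -6.00 in ap_GFP and -5.86 in slou_RFP. The plasmatocyte gene *Hml* was higher, at 0.54 and 0.55, and *Pxn*, *eater*, *gcm* and *gcm2* did not pass. *Pxn*, *eater* and *gcm2* had means over the 9 arrays of 3.11, 3.30 and 3.58, below every array median. *Hml* had a mean of 4.52, within the range of the array medians. At these signals *Hml*, *Pxn*, *eater* and *gcm2* are not shown to be above background. The deviations of the 13 were -0.49 to -0.10 in ap_GFP, -0.47 to -0.19 in slou_RFP and 0.17 to 1.04 in twi_actin_GFP. Of the 13 genes of dorsal epidermis and amnioserosa other than *pnr*, 7 were lower in both comparisons and 1 was higher in each. The higher gene was *kay* in ap_GFP (0.26) and *zen* in slou_RFP (0.41). *kay* and *zen* had means over the 9 arrays of 3.45 and 4.45, below every array median. The median deviation of the 13 genes on each array ran from -0.46 to -0.39 in ap_GFP, -0.64 to -0.10 in slou_RFP and 0.60 to 1.01 in twi_actin_GFP. The part of such cells in the lower *svp*, *prc* and *pnr* levels was not tested.

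Oenocyte, chordotonal organ and neuronal genes were not lower by the test. Of the 5 other oenocyte and chordotonal organ genes, which are relevant because *prc* and *svp* are used there, 1 was higher in ap_GFP and 3 in slou_RFP, and 0 were lower. Their median deviation on each array ran from -0.02 to 0.02 in ap_GFP, 0.11 to 0.21 in slou_RFP and -0.30 to -0.12 in twi_actin_GFP. The 1 gene higher in ap_GFP was *alphaTub85E*, at 1.86 (adjusted p = 0.00184), with a mean of 11.40 over the 9 arrays. In slou_RFP the higher genes were *alphaTub85E* at 1.75 (adjusted p = 0.00263), *cato* at 0.45 and *nompC* at 0.40. The markers *cato*, *nompC* and *iav* had means over the 9 arrays of 4.12, 4.12 and 4.13, below every array median. *salm*, on the same list, did not pass, at -0.55 in ap_GFP (adjusted p = 0.0801) and -0.48 in slou_RFP (adjusted p = 0.104). The listed genes *Cyp4g1* and *Hnf4* were not analysed here, so the list bears little on oenocytes. Of 7 neuronal genes 4 were higher in ap_GFP and 5 in slou_RFP, with 0 lower. The shares of all genes, for each list in this paragraph, were 10.9% higher and 16.3% lower in ap_GFP, and 11.3% and 17.3% in slou_RFP. Visceral mesoderm genes were lower in part. Of 5 measured, 3 were lower in ap_GFP and 2 in slou_RFP, with 0 higher, among them *Hand*, which the heart shares. Of 11 founder cell and myoblast fusion genes, 9 were higher in both comparisons, with *sing* at 3.18 in ap_GFP and 3.06 in slou_RFP. The founder cell gene *kirre* and the muscle identity gene *nau* were the 2 that did not pass. *srp*, *ush* and *tup* stand on several of these lists, which are not independent of each other.

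The genes whose profile over the 9 arrays lay closest to that of each gene were found by the root mean square difference of centred log2 values, as a description. The closest to *prc* were *CG3246* (0.16), the aminopeptidase gene *grsm* (0.19) and the aldehyde dehydrogenase gene *Aldh7A1* (0.21). *svp* was closest to *trol* (0.13), the folate enzyme gene *pug* (0.14) and the glutathione transferase gene *GstT1* (0.17). *Sur* was closest to *CG31673* (0.22), *CG3999* (0.22) and *Egfr* (0.22). *pnr* was closest to *CG31174* (0.23), *GILT2* (0.24) and *CG1637* (0.24), all 3 lower in both muscle reporter groups by the test. *Ih* was closest to *Dll* (0.07), *CG31122* (0.08) and *Cul5* (0.08), none of which passed a test against twi_actin_GFP. Of these 15 genes only *trol* stood on a cardiac list.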

How the data were processed

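Sorted-cell RNA was hybridized to Affymetrix Drosophila 2.0 arrays. The authors deposited 1 log2 value for each probe set and array, and the submitters' processing notes name RMA and Partek. Versions and settings are not given in the sources used here. RMA compresses differences at low signal and gives no detection call, and the number of arrays limits the precision. Groups came from the sample titles.

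All 16377 probe sets on 9 arrays entered 1 limma 3.58.1 fit (R 4.3.3) of 3 group means with moderated variances. P-values were adjusted by Benjamini-Hochberg over all probe sets, with a threshold of 0.05. The fit was checked on simulated arrays. Probe sets were named by the platform annotation. 11899 carried 1 symbol, 353 several and 4125 none. The brightest of a gene's probe sets stood for it. Shares of all genes refer to 10563 such genes.

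The genes, lists and named-gene rule were chosen with earlier results of these data known. The rule named all 5 genes, the 3 closest profiles of each, up to 4 genes per list by adjusted p and selected heart and GATA genes. The genes *vkg*, *Col4a1*, *unc-5*, *LanB1*, *LanB2*, *Irk1*, *Irk2*, *Irk3*, *nompC*, *iav*, *hh*, *Hml*, *Pxn*, *eater*, *gcm*, *gcm2*, *kay*, *zen*, *kirre* and *nau* were added after their values were seen. Alternatives were leaving out each array, a replicate block, only the compared groups, quantile normalization, median centring, a filter on dim probe sets, a variance trend, array weights and the submitters' threshold.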

Additional observations from a re-analysis of the deposited data

How the results depend on the processing

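*prc*, *svp* and *Sur* kept their direction and their call against twi_actin_GFP in all 18 alternatives of each comparison, with changes from -3.63 to -2.95 for *prc*, -2.39 to -1.96 for *svp* and -2.27 to -1.63 for *Sur*. *pnr* kept its direction in all 18. In ap_GFP its call was lost in 9 of them, at -1.44 with the replicate block (adjusted p = 0.0783), -1.22 after quantile normalization (0.0751), -1.43 with arrays centred on their medians (0.052) and in the omissions named above (-1.77 to -1.03 over all single omissions). In slou_RFP its call was lost in 2, within a range of -1.92 to -1.34, and the cause was not tested. *Ih* turned to -0.0030 in ap_GFP without ap_GFP replicate 3, alone (range -0.0030 to 0.23) or with slou_RFP replicate 2, and to 0.078 in slou_RFP without slou_RFP replicate 1 (range -0.13 to 0.078 over single omissions). In slou_RFP the lowest *Ih* changes were -0.25 with array weights (adjusted p = 0.0873) and -0.20 after quantile normalization (adjusted p = 0.405). *Ih* has no value with the filter on dim probe sets, which removes it. Between the muscle reporters *prc* turned to 0.25 with array weights and 0.31 without both divergent arrays, and ranged from -0.32 to 0.36 over single omissions, *svp* from -0.10 to 0.30 and *pnr* from -0.10 to 0.65. The dim *svp* probe set gave 0.048 and 0.016 against twi_actin_GFP. Same-numbered arrays did not consistently deviate together (r across probe sets from -0.62 to 0.49), and the main fit used no pairing. The divergent arrays carry different numbers and enter the lowest of these values, so this check cannot exclude a pairing. Not every array correlated best with its own number. The block changed no other call of the 5 genes and gave 3151 calls over all probe sets in ap_GFP and 3320 in slou_RFP. All calls without it numbered 3593 in ap_GFP (2487 to 5462 over single omissions, 6028 with array weights, 2318 at the submitters' threshold, 5968 without both divergent arrays) and 3946 in slou_RFP (2453 to 4968, 9228, 2247 and 6155 in the same order). Between the muscle reporters there were 0, and 11 at the submitters' threshold.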
